A study of Mus musculus with 24 samples.

Results

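Tnfaip2, Ifi30 and Ptdss2 are 3 genes of the 49585 measured in 24 single cells that were sorted as burst-forming units-erythroid (BFU-E) from mouse fetal liver. They were picked by name, because an earlier analysis of these same cells had placed them among the genes whose level rose most along an axis of red cell maturation. That value chose them, so their relation to maturation is described here and supports nothing. All 24 cells are one group: strain C57/Bl6J, embryonic day 14.5, no treatment named, depleted of cells carrying lineage antigens and sorted with antibodies to CD117, CD71 and CD24. No embryo is named for any cell, so the group counts as 1 sample, and no p-value is made from cells. Each cell was profiled by Smart-seq2, a plate method that reads full-length polyadenylated transcripts after PCR and carries no molecular identifiers. Levels are counts per 1000000 of a cell's total (CPM), a gene is called detected at 5 counts or more, and a rho is a Spearman correlation over cells.

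BFU-E are immature cells already set on forming red cells, and their descendants switch on haem synthesis and globin genes. Klf1 is a transcription factor that activates genes of the red cell, and Blvrb encodes a biliverdin reductase that is abundant in red cells. Tnfaip2, also called M-Sec, was found as a gene induced by tumour necrosis factor, is related to the exocyst subunit Exoc3, and promotes membrane protrusions in several cell types. Ifi30, or GILT, encodes a lysosomal thiol reductase that is induced by interferon gamma and is best known from antigen-presenting cells, where it reduces disulphide bonds of proteins taken up for presentation. Ptdss2 encodes phosphatidylserine synthase 2, an enzyme of the endoplasmic reticulum that makes phosphatidylserine from phosphatidylethanolamine, whereas its relative Ptdss1 starts from phosphatidylcholine.

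The promoters are shown because Tnfaip2 and Ifi30, and less closely Ptdss2, varied together with Klf1, whose family binds CACCC-type motifs. Each runs 5′ to 3′ on the gene's own strand, from 250 bases before to 50 bases after the RefSeq start (GRCm38.p6): Tnfaip2 at chr12:111442411-111442710 on the plus strand, Ifi30 at chr8:70766614-70766913 on the minus strand, and Ptdss2 at chr7:141131036-141131335 on the plus strand. Capitals mark matches to CCNCNCCC (KLF) or to NGATAN with A or T first and A or G last (GATA), searched on both strands.
Tnfaip2: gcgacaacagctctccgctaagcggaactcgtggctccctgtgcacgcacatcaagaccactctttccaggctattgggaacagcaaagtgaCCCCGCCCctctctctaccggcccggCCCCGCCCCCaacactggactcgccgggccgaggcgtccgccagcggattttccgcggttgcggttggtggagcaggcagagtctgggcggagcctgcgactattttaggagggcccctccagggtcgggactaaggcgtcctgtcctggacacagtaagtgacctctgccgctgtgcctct
Ifi30: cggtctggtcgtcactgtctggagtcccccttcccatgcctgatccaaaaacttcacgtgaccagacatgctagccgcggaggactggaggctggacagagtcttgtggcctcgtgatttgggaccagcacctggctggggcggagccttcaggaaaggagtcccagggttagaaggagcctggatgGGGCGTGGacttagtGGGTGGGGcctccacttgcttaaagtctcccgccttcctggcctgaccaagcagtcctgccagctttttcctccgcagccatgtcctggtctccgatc
Ptdss2: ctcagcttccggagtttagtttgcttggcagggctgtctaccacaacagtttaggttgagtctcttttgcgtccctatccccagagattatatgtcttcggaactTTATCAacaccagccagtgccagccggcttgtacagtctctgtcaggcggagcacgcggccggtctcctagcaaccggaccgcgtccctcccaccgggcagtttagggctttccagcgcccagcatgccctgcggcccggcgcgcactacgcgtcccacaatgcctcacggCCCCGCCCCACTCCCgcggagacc

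All 3 windows held the KLF motif, as did 49.5% of the 32851 mouse promoter windows of this length. Tnfaip2 had 3 matches between positions -158 and -123 from the start, Ifi30 had 2 between -63 and -41, and Ptdss2 had 2 between 27 and 41. All the matches in Tnfaip2 and Ptdss2 overlap a GC box (GGGCGG on either strand, in 35.7% of windows), 1 of those in Ptdss2 by a single base, while the matches in Ifi30 do not. The GATA motif matched in Ptdss2 alone, at -145, and in 29.8% of all windows. The gamma-activated site, the interferon-stimulated response element and the NF-kappaB motif, found in 8.3%, 3.44% and 1.47% of windows, had no match in any of the 3. A match is a string of letters and no measured binding.

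GENCODE M21, on the build of the counts (GRCm38), places Tnfaip2 (ENSMUSG00000021281) on chromosome 12 from 111442469 to 111455018, Ifi30 (ENSMUSG00000031838) on chromosome 8 from 70762774 to 70766663, and Ptdss2 (ENSMUSG00000025495) on chromosome 7 from 141122382 to 141157606. Tnfaip2 and Ptdss2 are annotated as protein coding and Ifi30 as a processed transcript. An antisense gene, Gm40578, overlaps Tnfaip2 and was not analysed here. Libraries were made without strand information, so reads of the pair cannot be told apart. The gene that overlaps Ifi30, 6330537M06Rik, had 0 counts in every cell, and no gene overlaps Ptdss2. The RefSeq starts used for the promoters of Tnfaip2 and Ptdss2 lie inside the GENCODE span of the gene, so the KLF matches of both genes fall within the annotated gene, whereas the start of Ifi30 is the same in both.

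Total counts ran from 876983 to 2155010 per cell, and 4767 to 7349 genes were detected per cell. All 11 markers of erythroid progenitors were detected in at least 12 cells, with Kit, the receptor for stem cell factor, in 24, against 12% of all gene rows. In 5 cells, numbers 1, 9, 19, 23 and 24, Klf1 was under 10 CPM, and in 4 of these 5 the regulator Gata1 was not detected either, so those 4 go against the erythroid label. The summed level of 12 myeloid markers, among them the myeloperoxidase gene Mpo, was 406 to 10424 CPM in all 5 cells low in Klf1. In the other 19 it was 0 to 319.6 CPM, and the ranges did not overlap. Cell 23, which kept Gata1 at 886 CPM, had 2507 CPM of Mpo. The correlations among the 3 genes and with Klf1, Blvrb and the maturation score are therefore given with and without these 5 cells. Values for pathway lists and markers are over 24 cells unless 19 are named. The part of myeloid transcripts in the patterns below was not tested.

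Tnfaip2 was either clearly present or close to absent. It was found in 14 of 24 cells, or 58.3% (95% Clopper-Pearson interval 36.6 to 77.9), where it ran from 15.5 CPM in cell 8 through a median of 211 to 398 CPM in cell 5. In the other 10 cells it reached at most 2 counts, or 1.65 CPM, and no cell lay between 1.65 and 15.5 CPM. Its mean over all cells was 133 ± 135 CPM (SD over 24 cells, as for all levels here). Leaving cell 8 aside, the lowest of the cells with Tnfaip2 was cell 18, at 142 CPM. Of 1516 genes whose mean lay within 1.5 times that of Tnfaip2, 4 had a larger SD on the log2(CPM + 1) scale, and the median gene of that level was detected in 22 cells. A count of 0 allows up to 3 counts, or 1.39 to 3.42 CPM depending on the cell, and RNA lost in capture cannot be told apart from RNA that was never there.

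Ifi30 was also detected in 14 of 24 cells, but they were not the same 14. It ran from 16.2 CPM in cell 12 through a median of 86.3 to 312 CPM in cell 5, with 270 CPM in cell 15, 169 in cell 11 and 164 in cell 18. The other 10 cells had at most 4 counts, or 1.95 CPM, and 6 of them had 0. Its mean was 68.4 ± 87.5 CPM. Among 2097 genes within 1.5 times its mean level its SD ranked 148th from the top. Like Tnfaip2, Ifi30 left an empty stretch, here between 1.95 and 16.2 CPM.

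Ptdss2 was the most widely expressed of the 3, found in 20 of 24 cells, or 83.3% (interval 62.6 to 95.3). It ran from 11.9 CPM in cell 16 through a median of 102 to 269 CPM in cell 20, with 237 CPM in cell 15, 225 in cell 11 and 209 in cell 17. Cells 3, 10, 19 and 23 had at most 1 count. Its mean was 96.0 ± 81.1 CPM, and its SD ranked 814th of 1867 genes of like level, near the middle. Ptdss2 had an empty stretch too, between 1.14 and 11.9 CPM, but with 4 cells below it in place of 10. Per kilobase of exons, Ifi30 (0.981 kb) stood at 69.8 ± 89.2 CPM, Tnfaip2 (4.98 kb) at 26.8 ± 27.1 and Ptdss2 (5.63 kb) at 17.04 ± 14.4, and the spreads of all 3 overlapped; Ifi30 and Tnfaip2 differed by less than the SD of Ifi30 but by more than that of Tnfaip2. On the same scale Klf1 stood at 271 ± 202 and Blvrb at 113 ± 86.5 CPM.

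**Figure D1:**
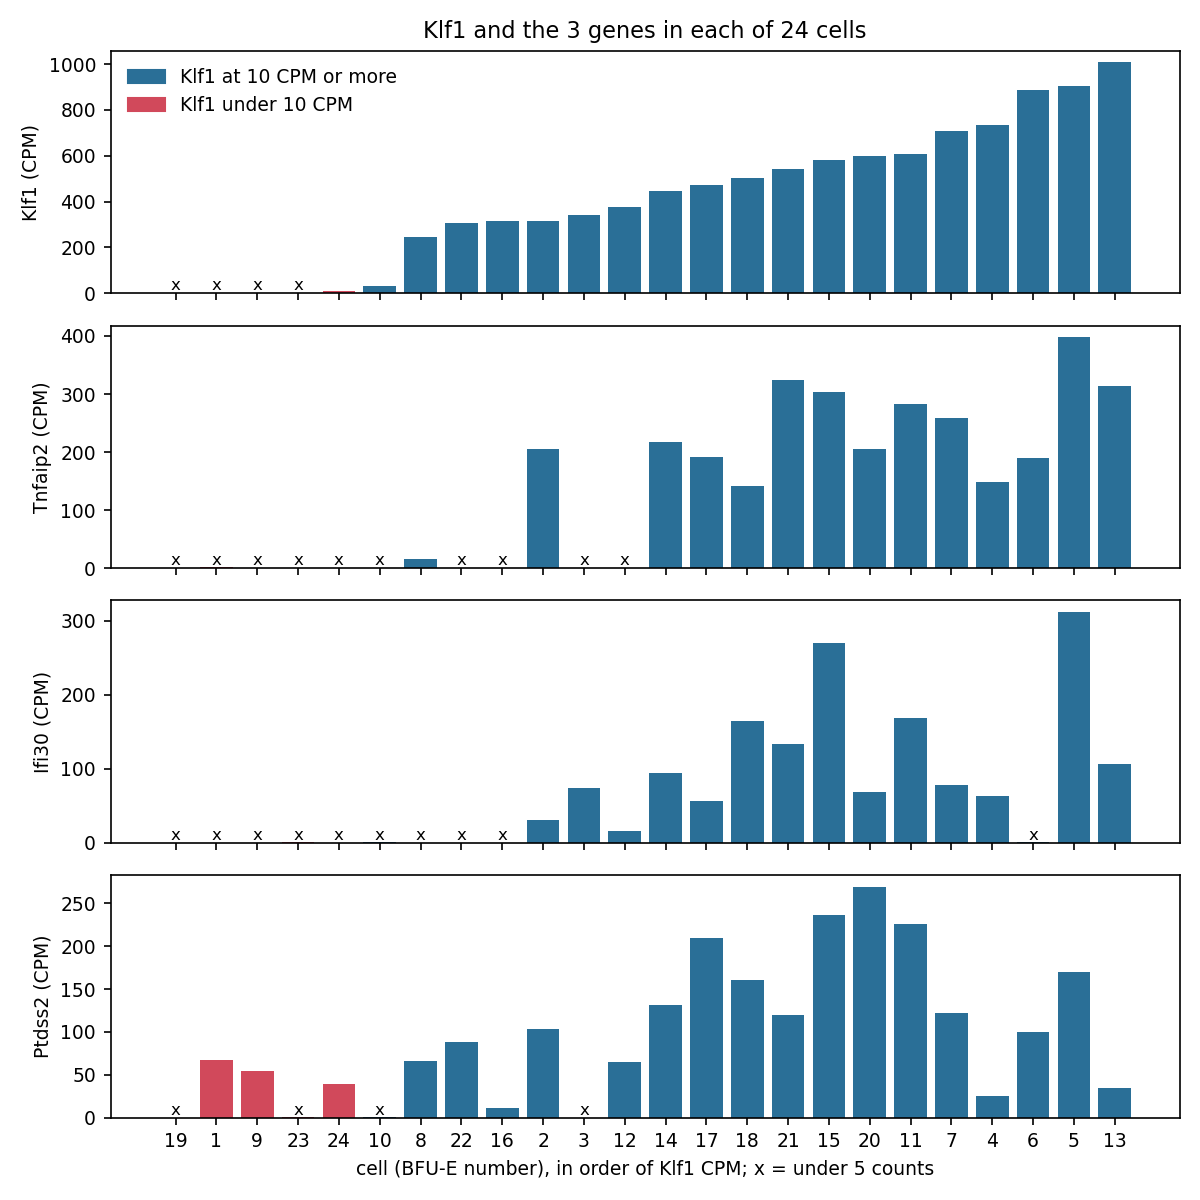
Levels of Klf1, Tnfaip2, Ifi30 and Ptdss2 in CPM (bars, 1 per cell) in 24 cells ordered by Klf1, with the 5 cells under 10 CPM of Klf1 in red and x for under 5 counts. Tnfaip2 was detected in all 12 cells with the most Klf1 and in 2 of the 12 with the least, while Ptdss2 was present in 3 of the 5 red cells.

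The on-off patterns of the 3 genes overlapped in most cells. All 3 were detected in 12 cells (2, 4, 5, 7, 11, 13, 14, 15, 17, 18, 20 and 21) and none in 3 (10, 19 and 23). Ptdss2 was on without the other two in 5 cells (1, 9, 16, 22 and 24). Tnfaip2 and Ptdss2 were on without Ifi30 in cells 6 and 8, Ifi30 and Ptdss2 without Tnfaip2 in cell 12, and Ifi30 alone in cell 3. No cell had Tnfaip2 without Ptdss2. Cell 6 stood apart most: it had 190 CPM of Tnfaip2 and 887 CPM of Klf1, but 4 counts of Ifi30.

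In the 5 cells low in Klf1, Tnfaip2 and Ifi30 were near 0 and Ptdss2 was often kept. Tnfaip2 had 2 counts in cell 1, 0 in cell 23 and 1 each in cells 9, 19 and 24. Ifi30 had 1 count in cell 23 and 0 in the other 4. Ptdss2 stood at 66.8 CPM in cell 1, 54.1 in cell 9, 39.8 in cell 24, 1.14 in cell 23 and 0 in cell 19. Cells 1 and 9 carried 7227 and 738 CPM of Mpo beside that Ptdss2. Of the 19 cells with Klf1, 14 had Tnfaip2, 14 had Ifi30 and 17 had Ptdss2. Their means in these 19 cells were 168 ± 131, 86.4 ± 90.3 and 113 ± 82.3 CPM.

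Ordered by Klf1, Tnfaip2 was detected in 12 of the 12 upper cells, which had at least 445 CPM of Klf1, and in 2 of the 12 lower ones, which had at most 377 CPM. Ifi30 was detected in 11 and 3 of the same cells, and Ptdss2 in 12 and 8. Each of the 14 cells with Tnfaip2 held at least 244 CPM of Klf1 and at least 201 CPM of Blvrb, and each of the 14 with Ifi30 at least 317 and 201 CPM. The reverse did not hold. Cell 22 had 306 CPM of Klf1 and 318 of Blvrb with 0 counts of Tnfaip2 and of Ifi30, cell 12 had 377 and 437 CPM with 0 counts of Tnfaip2, and cell 16 had 314 CPM of Klf1 with 1 count of Tnfaip2 and 0 of Ifi30. Ptdss2 was found down to 2.48 CPM of both genes, in cell 1.

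Over 24 cells the rho with Klf1 was 0.73 for Tnfaip2, 0.79 for Ifi30 and 0.52 for Ptdss2. Without the 5 cells low in Klf1 it was 0.71, 0.64 and 0.39 over 19 cells. Tnfaip2 and Ifi30 were among the 80 of 5961 genes (1.34%) with a rho of at least 0.6 with Klf1, and Ptdss2 was not. With Blvrb the rho was 0.75 for Tnfaip2, 0.72 for Ifi30 and 0.61 for Ptdss2, and all 3 were among the 88 genes (1.48%) at or above 0.6. Without the 5 cells these were 0.73, 0.59 and 0.48. Klf1 and Blvrb themselves gave 0.81 over 24 cells and 0.66 over 19. Without those cells the values of Tnfaip2 changed least, and those of Ifi30 and Ptdss2 fell by similar amounts, none by over 0.2. The 3 genes were chosen for a rise along an axis of red cell maturation. On the axis rebuilt below, Blvrb ranked 1st of 5583 named genes outside its lists. The correlations and shares above are therefore a description and support nothing.

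**Figure D2:**
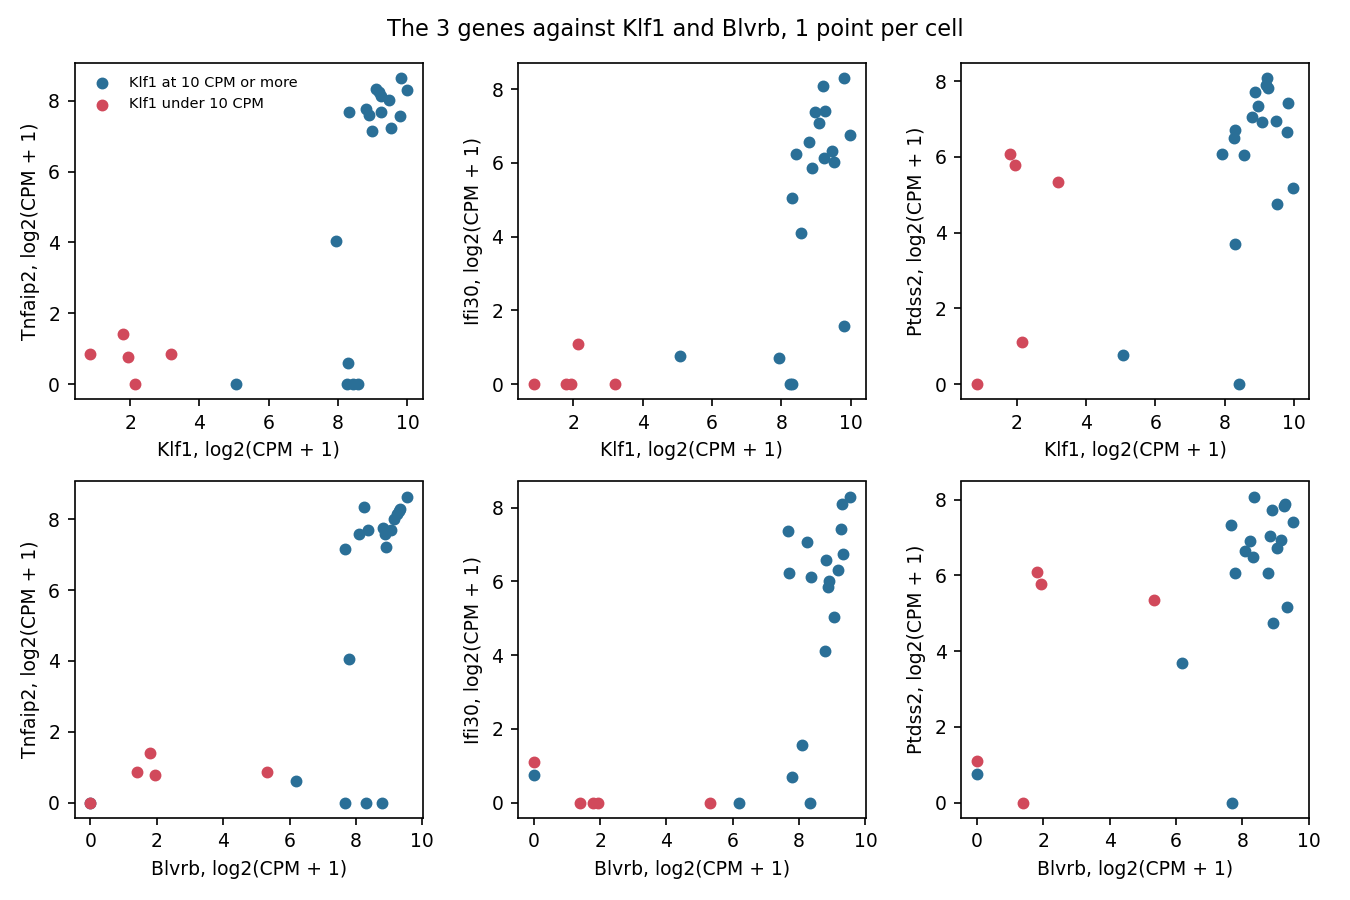
Each of Tnfaip2, Ifi30 and Ptdss2 against Klf1 (upper row) and Blvrb (lower row) on the log2(CPM + 1) scale, 1 point per cell, with the 5 cells under 10 CPM of Klf1 in red. Tnfaip2 and Ifi30 lay near 0 in every red cell, and several cells with Klf1 and Blvrb also lay near 0.

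Among themselves the 3 genes gave a rho of 0.75 for Tnfaip2 and Ifi30, 0.70 for Tnfaip2 and Ptdss2 and 0.60 for Ifi30 and Ptdss2. Over the 19 cells these were 0.77, 0.63 and 0.58. The 3 genes were chosen with these values known, so they are a description and support nothing. These values rest on sparse counts and on cells of unequal depth, whose labels do not state whether they shared a plate. The rho with total counts was 0.53 for Tnfaip2, 0.43 for Ifi30 and 0.39 for Ptdss2, or 0.32, 0.20 and 0.19 without the 5 cells. With the number of genes detected it was 0.52, 0.14 and 0.41. With the share of mitochondrial counts it was -0.48, -0.19 and -0.21. Klf1 moved with depth as well, with a rho of 0.65 with total counts (0.47 over 19 cells) and -0.51 with the mitochondrial share, and Blvrb gave 0.38 and -0.44. The part of depth and of the mitochondrial share was not tested beyond thinning every cell to 876983 counts, which moved none of these correlations by over 0.2.

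The rho was lower for every pair in cells where both genes were detected. In the 12 cells where both were detected, the levels of Tnfaip2 and Ifi30 gave a rho of 0.63. Tnfaip2 and Ptdss2 gave 0.30 over 14 such cells, and Ifi30 and Ptdss2 0.45 over 13. Against Klf1 the rho in cells with both genes detected was 0.45 for Tnfaip2 and 0.50 for Ifi30 over 14 cells each, and 0.26 for Ptdss2 over 18. Against Blvrb it stayed at 0.71 for Tnfaip2 and was 0.35 for Ifi30 and 0.37 for Ptdss2. Against the rebuilt maturation axis described after the plate columns, Tnfaip2 gave 0.67 over its 14 cells, Ifi30 0.35 over 14 and Ptdss2 0.53 over 20. The set of cells was chosen after the data were seen and narrows the range of both genes.

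The number in each well label, read here as a plate column, put the cells in 3 columns of 8, and the levels differed between them. Tnfaip2 was detected in 3, 7 and 4 cells of columns 1, 2 and 3, Ifi30 in 3, 6 and 5, and Ptdss2 in 6, 7 and 7. Mean Ptdss2 was 43.9 ± 44.5, 147 ± 88.9 and 96.99 ± 75.2 CPM. Within columns 1, 2 and 3 the rho of Tnfaip2 with Ifi30 was 0.72, 0.95 and 0.46, that of Tnfaip2 with Ptdss2 0.35, 0.62 and 0.75, and that of Ifi30 with Ptdss2 0.27, 0.67 and 0.73. With Klf1 it was 0.61, 0.88 and 0.71 for Tnfaip2, 0.79, 0.90 and 0.59 for Ifi30 and 0.38, 0.83 and 0.74 for Ptdss2. With Blvrb it was 0.74, 0.81 and 0.35 for Tnfaip2, 0.68, 0.76 and 0.63 for Ifi30 and 0.64, 0.48 and 0.55 for Ptdss2. Every one of these values was above 0, and the lowest were those of Ptdss2 with Ifi30 and Tnfaip2 in column 1, its column of lowest level, and of Tnfaip2 with Blvrb in column 3.

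**Figure D3:**
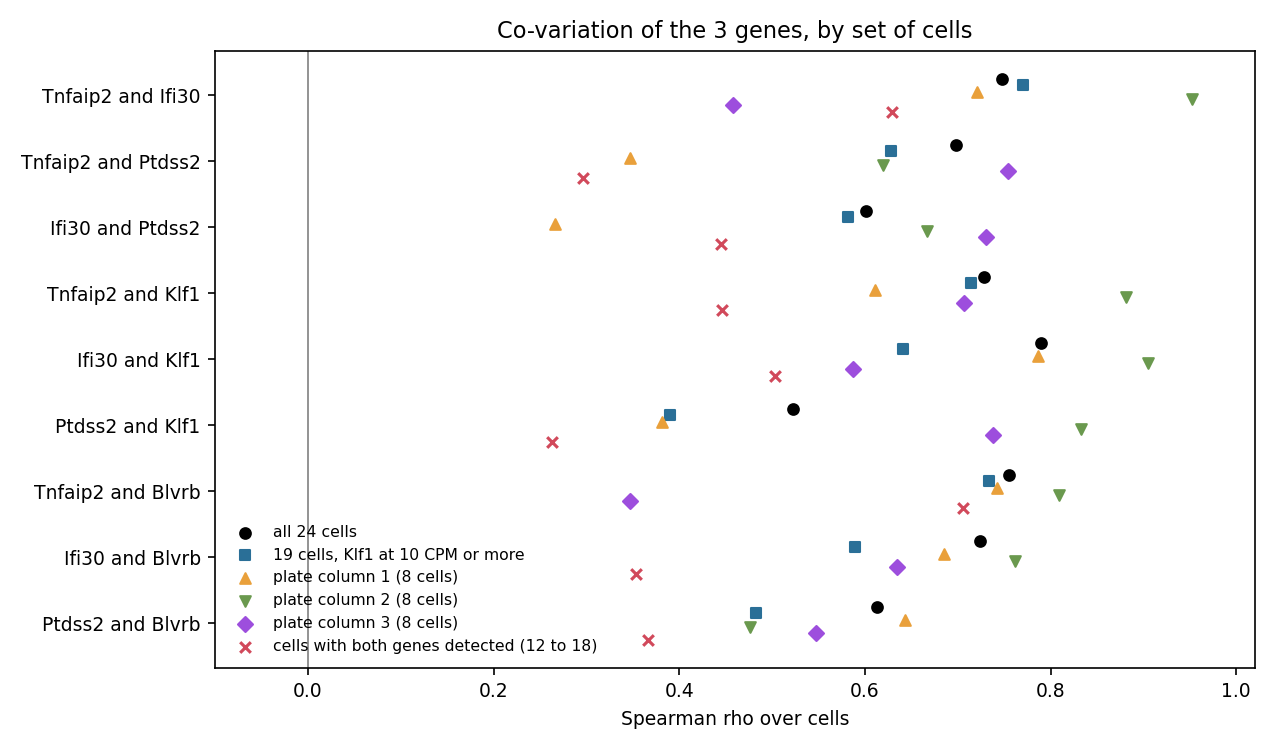
Spearman rho (horizontal axis) for each pair among Tnfaip2, Ifi30, Ptdss2, Klf1 and Blvrb that holds at least 1 of the 3 genes, with 1 symbol for each set of cells. All values lie to the right of 0, and those from cells with both genes detected (crosses) lie left of the value over all 24 cells for every pair.

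The maturation axis used here is not the earlier one that chose the 3 genes, but one like it, rebuilt from lists drawn up anew: 24 erythroid maturation genes minus 16 early progenitor genes, neither list holding any of the 3. Tnfaip2 had a rho of 0.81 with it, Ifi30 0.79 and Ptdss2 0.66, which placed them 5th, 7th and 42nd of 5583 named genes outside the lists. Over the 19 cells the rho was 0.84, 0.63 and 0.59. In plate columns 1, 2 and 3 it was 0.55, 0.57 and 0.75 for Tnfaip2, 0.79, 0.50 and 0.83 for Ifi30 and 0.52, 0.21 and 0.86 for Ptdss2. Tnfaip2 was detected in 12 of the 12 cells highest on this axis and 2 of the 12 lowest, Ifi30 in 11 and 3, and Ptdss2 in 12 and 8.

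Genes with patterns like those of the 3 were ranked over 5961 genes detected in at least 12 cells. With Tnfaip2, 90 genes (1.51%) had a rho of at least 0.6 and 47 (0.788%) of at most -0.6. With Ifi30 these were 64 (1.07%) and 47 (0.788%), and with Ptdss2 36 (0.604%) and 30 (0.503%). Without the 5 cells low in Klf1, over 5066 genes, the counts were 83 (1.64%) and 55 (1.09%) for Tnfaip2, 34 (0.671%) and 28 (0.553%) for Ifi30, and 33 (0.651%) and 37 (0.73%) for Ptdss2. The count of 36 for Ptdss2 moved with single cells: 63 genes passed without cell 13 and 55 without cell 4, but 26 without cell 19. Ifi30 ranked 10th and Ptdss2 25th among the genes like Tnfaip2. In turn Tnfaip2 ranked 6th for Ifi30, where Klf1 ranked 3rd, and 5th for Ptdss2. Since the 3 genes were chosen together, these ranks are a description.

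Nearest to Tnfaip2 was Cinp, which encodes a partner of cyclin-dependent kinase 2 (rho 0.80, 122 ± 100.1 CPM, 21 cells). Cinp also lies on chromosome 12, 553 kb from Tnfaip2. It was followed by the mitochondrial protein gene C1qbp (0.80), the superoxide dismutase Sod1 (0.80), Uqcr11 of respiratory complex III (0.79) and the metallothionein Mt1 (0.78). Those opposed most were Arpc2, a subunit of the actin-branching complex (-0.82), the adhesion receptor Adgrg1 (-0.82) and Slc9a3r1, a scaffold of membrane proteins (-0.79). Over the 19 cells Cinp stood at 0.81, Sod1 at 0.83, and Arpc2 at -0.88.

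With Tnfaip2 and Ptdss2 left out, the named genes nearest to Ifi30 began with the haem-binding protein gene Hebp1 (0.79, detected in 12 cells). Klf1, Mt1 (0.78), Sod1 (0.75) and the septin gene Sept8 (0.75) followed. Opposed were Cnpy2 (-0.79) and Bin2, a membrane-curvature protein of blood cells (-0.77). The erythropoietin receptor Epor had a rho of 0.66 with Ifi30, against 0.33 with Tnfaip2 and 0.24 with Ptdss2, and 0.51 with Ifi30 over the 19 cells. Gata1 gave 0.19 with Tnfaip2, 0.29 with Ifi30 and 0.22 with Ptdss2, and Kit gave -0.16, -0.21 and -0.04.

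With Tnfaip2, which ranked 5th, and Ifi30 left out, a different set was nearest to Ptdss2. It held Hadhb of mitochondrial fatty acid oxidation (0.78), Ubr7 (0.72) and the translation repressor gene Eif4ebp1 (0.72). The mitochondrial membrane gene Stoml2 (0.71) and Atp6v1c1, a subunit of the vacuolar proton pump (0.70), followed. Opposed were Lrrc58 (-0.74), Zfp36l2, an mRNA decay factor of early erythroid progenitors (-0.73), and Glg1 (-0.73). Hadhb gave 0.43 with Tnfaip2 and 0.44 with Ifi30, and Ubr7 0.37 and 0.33.

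The 3 rankings overlapped in part. They rest on the same 24 cells and on genes that vary together, so the overlaps are a description. Leaving out the 3 genes themselves, 30 of the 88 genes that rose with Tnfaip2 and of the 62 that rose with Ifi30 were in both sets. Of the 34 that rose with Ptdss2, 10 were shared with Tnfaip2 and 4 with Ifi30. Blvrb, Mt1 and Sod1 were at or above 0.6 with all 3, and their lowest rho of the 3 was 0.61, 0.68 and 0.67. Sod1, an antioxidant enzyme, averaged 1058 ± 322.5 CPM, and Mt1, which binds zinc and copper, 470.5 ± 376 CPM. On the other side 7 genes were at or under -0.6 with all 3: Arpc2, Cmtm7, Klk8, Ptpn18, Rgs18, Slc9a3r1 and Zyx. Klk8, Ptpn18, Rgs18 and Zyx were named after their values were seen. Over the 19 cells, Fth1, Sart1, Sod1 and Stoml2 rose with all 3, and Actr2, Slc9a3r1 and Tpm3 fell with all 3. Of the 7 opposed genes above, only Slc9a3r1 was thus also in the set over the 19 cells. Fth1, Sart1, Actr2 and Tpm3 were likewise named after their values were seen.

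**Figure D4:**
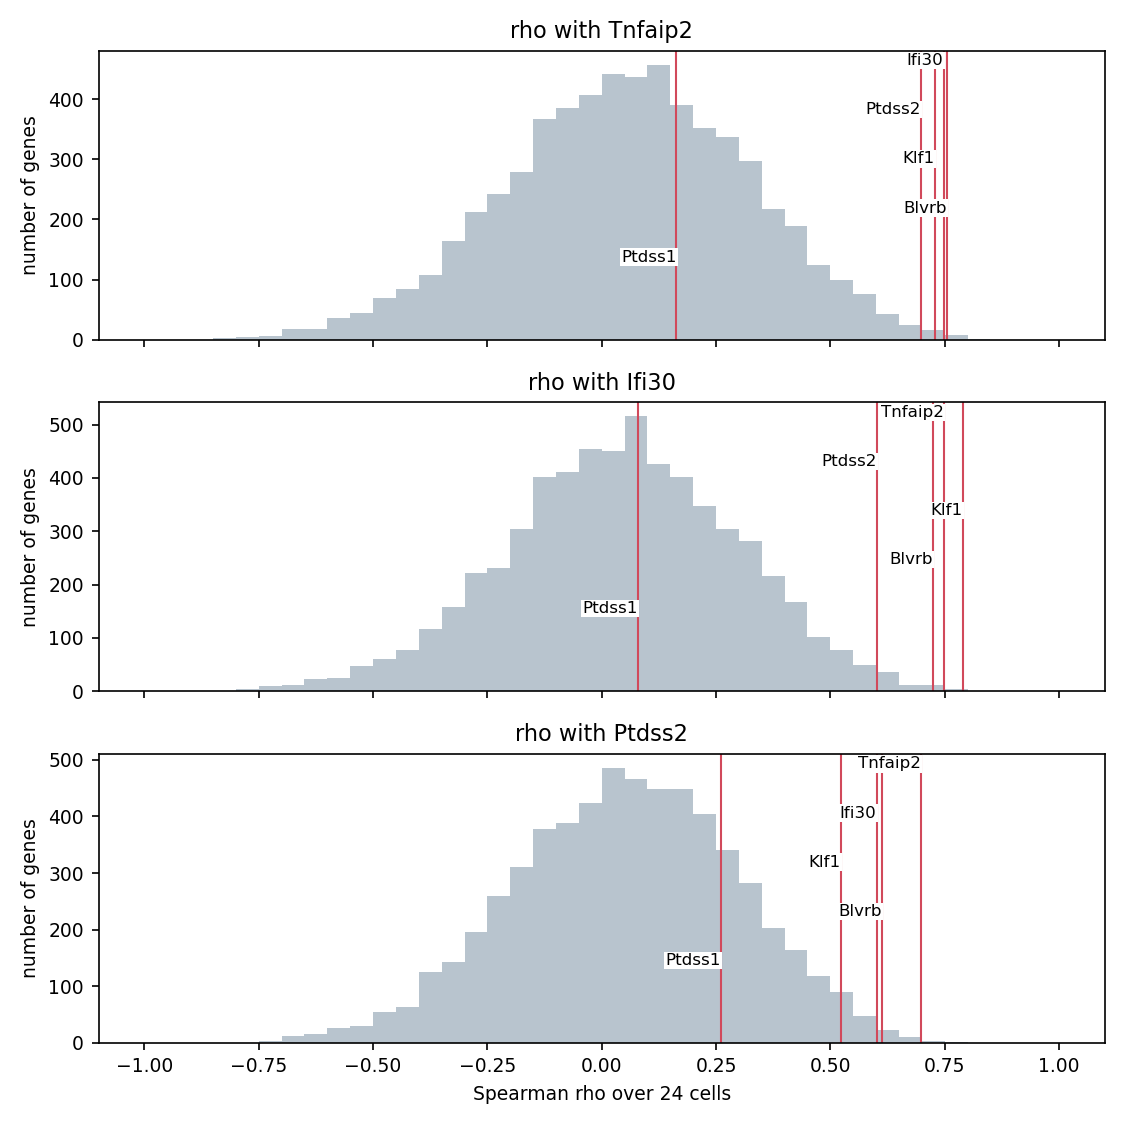
Number of genes (vertical axis) by Spearman rho over 24 cells with Tnfaip2, Ifi30 and Ptdss2, for 5961 genes each, with red lines at the other 2 of these, Klf1, Blvrb and Ptdss1. These 2, Klf1 and Blvrb lie in the upper tail at 0.52 to 0.79, and Ptdss1 lies at 0.08 to 0.26.

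Genes that share a pathway with one of the 3 were set beside it. With so few genes in a list, counts of 0 or 1 past 0.6 lie near the share over all genes and are no result about the list. The lists were drawn up with earlier results of these cells known. Of 34 other genes for phosphatidylserine and phospholipid synthesis and transport, 21 were detected in at least 12 cells, and 0 of these had a rho past 0.6 with Ptdss2 in either direction, against 0.604% higher and 0.503% lower among all genes. Their median rho was 0.02, against 0.06 over all genes tested. Ptdss1, the companion synthase, was detected in 21 cells at 68.1 ± 49.1 CPM, from 0 in cells 3, 8 and 18 to 157 CPM in cell 22, and its rho with Ptdss2 was 0.26. Per kilobase it stood at 15.9 ± 11.4 CPM, within the SD of Ptdss2. Ptdss1 overlaps Mterf3 and an antisense gene on the other strand, whose reads cannot be told apart from its own. The highest of the list were Plscr1, a scramblase gene, at 125 ± 94.5 CPM, Cdipt, for phosphatidylinositol, at 115 ± 87.2 and Lpin2, for diacylglycerol, at 105 ± 90.7, with rho of -0.12, -0.15 and 0.02. Agpat1, which makes phosphatidic acid, came nearest, at 0.57, and was named after its value was seen.

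Around Ifi30, 19 of 39 other genes of lysosome and antigen processing were detected in at least 12 cells. None of these rose with Ifi30 at 0.6 and 1 fell, against 1.07% and 0.788% of all genes, and their median rho was -0.18, against 0.05 over all genes. The gene that fell was Laptm5, which encodes a protein of lysosome membranes in blood cells (419 ± 437 CPM), with -0.71, or -0.54 over the 19 cells, which is no longer past 0.6. Lamp1, the main lysosomal membrane protein gene, at 307 ± 156 CPM, gave 0.33, and Gusb, at 205 ± 193 CPM, -0.51. The protease genes Ctsh and Ctss, the class II gene H2-Aa and the class II regulator Ciita had 0 counts in every cell, while the class II genes H2-Ab1 and H2-DMa were detected in 8 and 6 cells, at 24.5 ± 42.5 and 18.8 ± 43.5 CPM. H2-Ab1 and H2-DMa were named after their values were seen. Of 8 markers of antigen-presenting cells 4 had 0 counts throughout, and the summed level of the 8 was 0 to 152 CPM in the cells with Ifi30 and 0 to 1199 CPM in those without. Of 10 macrophage markers 7 had 0 counts in every cell, among them Adgre1 and the C1q genes. Csf1r was detected in 2 cells, and Cd68 and Marco in 1 each. The summed level of the 10 was 0 to 116 CPM in the cells with Ifi30 and 0 to 462 CPM in those without, with a median of 0 in both.

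Of 36 other genes of the interferon response, 12 were detected in at least 12 cells. With Ifi30 0 rose and 2 fell, against 1.07% and 0.788% of all genes. Those 2 were the immunoproteasome gene Psmb8 (82.4 ± 110 CPM, rho -0.64) and Irgm1, an interferon-induced GTPase (47.0 ± 61.4 CPM, rho -0.67). Among the 19 cells both were detected in fewer than 12, so no value is given there. The receptor gene Ifngr1, at 292 ± 223 CPM, gave 0.26, Ifitm2, at 192 ± 91.7 CPM, -0.13 and Psmb10, at 117 ± 64.0 CPM, -0.17. The interferon targets Gbp2, Gbp4, Iigp1, Ifit1 and Ifit3 had 0 counts in every cell. Other genes of the list, such as those above, were present, and the part of interferon in the level of Ifi30 was not tested.

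Around Tnfaip2, 11 of 31 other genes of tumour necrosis factor and NF-kappaB signalling were detected in at least 12 cells, with 0 past 0.6 in either direction, against 1.51% higher and 0.788% lower among all genes. Their median rho was -0.01, against 0.06 over all genes. The highest were the mitochondrial superoxide dismutase Sod2, at 237 ± 106 CPM and a rho of 0.44, and the NF-kappaB subunits Nfkb1, at 111 ± 87.9 CPM, and Rela, at 103 ± 78.2 CPM, at -0.13 and 0.11. Of the 31 genes 4 had 0 counts in every cell: the cytokine gene Tnf, Relb, Cxcl10 and Ccl2. Others of the list were detected in few cells, such as Icam1 in 7, Nfkbia in 5 and Birc3 in 4. Their levels were 31.0 ± 68.5, 9.93 ± 21.7 and 9.69 ± 28.7 CPM, and these genes were named after their values were seen. Of 14 exocyst genes and relatives 8 were so detected and 0 passed 0.6 with Tnfaip2, against the same shares. The highest were Exoc7 at 65.0 ± 62.3, Exoc3 at 52.9 ± 49.6 and Exoc6 at 48.7 ± 48.8 CPM. Exoc3, the relative in the exocyst complex, was in 16 cells with a rho of 0.13. The Exoc3-like relatives were low: Exoc3l2 was detected in 4 cells, Exoc3l in 0, and Exoc3l4 had 0 counts in every cell.

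Some haem genes rose with Tnfaip2 and Ifi30. Of 14 tested, 3 had a rho of at least 0.6 with Tnfaip2 and 3 with Ifi30, against 1.51% and 1.07% of all genes, and Blvrb, which was chosen for comparison with earlier results known, was in each count. Cpox, for coproporphyrinogen oxidation, at 369 ± 328 CPM, gave 0.72 with Tnfaip2 and 0.71 with Ifi30. Alad, the second enzyme of the pathway, at 320.3 ± 224 CPM, gave 0.68 and 0.73. Over the 19 cells Cpox stood at 0.65 and Alad at 0.62 with Tnfaip2, but at 0.54 and 0.55 with Ifi30, and Blvrb at 0.59, so none of these passed 0.6 with Ifi30 there. Tmem14c, a haem precursor transporter and the highest of the list at 564 ± 343 CPM, gave 0.12, 0.37 and 0.24, and Urod, which acts before Cpox, at 334 ± 189 CPM, gave 0.41, 0.55 and 0.45.

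Measured neighbours within 5 kb were found for Ifi30 and Ptdss2 only. Mpv17l2 and Pik3r2, 1828 and 1513 bases from Ifi30 and on its strand, were detected in 21 and 14 cells, and their rho with Ifi30 was 0.19 and 0.30. Rnh1, 2720 bases from Ptdss2 on the other strand, was in 21 cells at 168 ± 123 CPM with a rho of -0.11. These neighbours were looked up after the values of the 3 genes were seen.

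Summed myeloid markers had a negative rho with each of the 3 genes. The rho over 24 cells was -0.51 with Tnfaip2, -0.68 with Ifi30 and -0.50 with Ptdss2. The sum ran from 0 to 75.9 CPM, with a median of 21.7, in the 14 cells with Tnfaip2, and from 2.21 to 10424 CPM, with a median of 363, in the other 10, so the ranges overlapped. In the cells with Ifi30 it was 0 to 319.6 CPM. In the 20 cells with Ptdss2 it ran from 0 to 10424 CPM, and in the other 4 from 49.0 to 3155 CPM, so the cell with the most myeloid transcripts had Ptdss2. Elane, Cebpe and Ly86 of that list had 0 counts in every cell. The summed megakaryocyte markers had a rho of -0.65 with Tnfaip2, -0.28 with Ifi30 and -0.46 with Ptdss2. Of these markers only Itga2b was detected in at least 12 cells. Its rho with Tnfaip2, Ifi30 and Ptdss2 was -0.47, -0.16 and -0.37 over 24 cells. Over the 19 cells it was further from 0 with each gene, at -0.82, -0.595 and -0.73. Itga2b was named after its values were seen. The part of these transcripts was not tested.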

How the data were processed

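The authors deposited raw counts of reads per Ensembl gene, 1 column for each of 24 cells, used as deposited; all columns were matched to a cell by its well. Per the submitters' processing notes, STAR 2.4, featureCounts and GRCm38 were used; for annotation release, counting options and cell filters, the answer is not given in the sources used here. Symbols and coordinates came from GENCODE M21 (49326 of 49585 identifiers matched), promoters from RefSeq (GRCm38.p6).

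Counts were scaled to CPM by the cell's total. The axis used log2(CPM + 1) of 8266 genes detected in at least 6 cells: each list gene was centred on its bin average, with genes placed in 20 bins of mean level, and the list's genes were averaged. Rankings used genes detected in at least 12 cells. The genes, lists, tests and thresholds were chosen with earlier results of these data known. Named genes are, for each member, the 5 of highest and 3 of lowest rho, the 3 most extreme over all members, the 3 of highest mean and any past 0.6 in each list, and set comparison genes. The other members, predicted models and pseudogenes were passed over. Values of a few such genes are not reported here. Alternatives were edgeR 4.0.16 TMM and DESeq2 1.42.0 size factors, a total without mitochondrial and ribosomal RNA, Pearson r on log2(CPM + 1) and log2(CPM + 10), thinning, other detection thresholds, and subsets of cells. The rho calculation (Python 3.11.15, scipy 1.17.1) was tested on simulated data. Since PCR duplicates a molecule, intervals and floors reflect counting error alone.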

Additional observations from a re-analysis of the deposited data

How the results depend on the processing

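Of the alternatives computed, 714 values stayed close to the reported one and 25 moved, meaning by over 0.2 for a rho, over 1 SD for a level, outside the binomial interval for a share or over 1.5 times for a count. None turned a direction. Scaling by TMM, by DESeq2 size factors or by a total without mitochondrial and ribosomal RNA moved none, nor did Pearson r or thinning. Tnfaip2 had at least 1 count in 79.2% of cells. Genes lower with Ptdss2 were 46 among all genes with any count. Without the 5 cells low in Klf1, 34 genes rose and 28 fell with Ifi30. Within plate columns and among cells with both genes detected, the values that moved are these. Column 1 gave 0.35 for Tnfaip2 and 0.27 for Ifi30 with Ptdss2, and 0.55 for Tnfaip2 with the axis. Column 2 gave 0.95 for Tnfaip2 with Ifi30, 0.83 for Ptdss2 with Klf1, and 0.57, 0.50 and 0.21 for Tnfaip2, Ifi30 and Ptdss2 with the axis. Column 3 gave 0.46 for Tnfaip2 with Ifi30, 0.59 for Ifi30 and 0.74 for Ptdss2 with Klf1, 0.35 for Tnfaip2 with Blvrb, and 0.86 for Ptdss2 with the axis. Cells with both genes detected gave 0.30 for Tnfaip2 with Ptdss2, 0.45, 0.50 and 0.26 for Tnfaip2, Ifi30 and Ptdss2 with Klf1, and 0.35 and 0.37 for Ifi30 and Ptdss2 with Blvrb. That last alternative was added after the data were seen. The rho with the axis in cells with the gene detected was not counted among the 25. Of those, Ifi30 also moved by over 0.2, from 0.79 over all cells to 0.35 over 14. The cause of these moves was not tested, and a rho over 8 to 18 cells is imprecise. Depth limits absence to 1.39 to 3.42 CPM per cell.

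Leaving out each cell in turn, genes that rose with Ptdss2 numbered 26 to 63, those that fell 25 to 38, and the rho of Ptdss2 with Klf1 ran from 0.46 to 0.64, while Tnfaip2 with Ifi30 ran from 0.71 to 0.82. No paired analysis was possible because there is 1 group.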
